A study of Mus musculus with 22 samples.

Results

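The genes described here build sterols and fatty acids. The set holds 36 mouse genes named by pathway, 21 of the sterol branch and 15 of the fatty acid branch. A gene was represented by the probe set with its symbol, or by the one with the highest mean over all 22 arrays where there were several. In this way 33 of the 36 were found among the 19505 genes with a symbol, 20 in the sterol branch and 13 in the fatty acid branch, and Tm7sf2, Scd2 and Acsl3 were not analysed here. Each of the 33 passed the filter on low signal and was tested among 15545 genes.

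Both branches start from acetyl-CoA in the cytosol. In the sterol branch, acetyl-CoA is turned into mevalonate, then into isoprenoid units, squalene and lanosterol, and lanosterol is trimmed to cholesterol. The factor SREBP-2, the product of Srebf2, is held in the endoplasmic reticulum by the Insig proteins and its escort Scap, and when sterol is scarce it is released, cut and sent to the nucleus, where it switches on most genes of this branch. In the fatty acid branch, ATP citrate lyase makes acetyl-CoA from citrate, acetyl-CoA carboxylase makes malonyl-CoA, fatty acid synthase builds palmitate, and elongases and desaturases lengthen and desaturate it. Both branches are active in many carcinomas, and in the lung the alveolar type 2 cell also runs them to make surfactant lipid.

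The samples were lung metastases in mice that had been injected by tail vein with NMuMG cells, a mouse mammary epithelial line, all carrying ErbB2, an oncogenic receptor tyrosine kinase. The NMuMG-ErbB2/PGC-1alpha cells overexpress PGC-1alpha, a transcriptional coactivator of mitochondrial genes, and the NMuMG-ErbB2/VC cells are the control, and mice were given either the complex I inhibitor phenformin, a biguanide, for 1 week, or PBS. The 4 groups were control under PBS (5 arrays), control under phenformin (5 arrays), PGC-1alpha under PBS (6 arrays) and PGC-1alpha under phenformin (6 arrays), each array made from 10 ng of RNA of metastases cut out by laser capture. The labels used here give no age, strain or dose and do not say which arrays come from separate animals, so the p-values measure the spread between these arrays, which may be partly technical. PGC-1alpha goes with the injected line, and the expressed construct and any other difference between these lines cannot be told apart.

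All levels are log2 array signals, normalised by the authors, and a difference of 1 on this scale is a doubling. Array medians ran from 6.55 to 6.64, and within groups the typical gene had an SD of 0.252 (median over tested genes). Ppargc1a, which encodes PGC-1alpha, ran from 6.69 to 8.24 in control and from 8.46 to 9.38 in PGC-1alpha arrays under PBS, and from 7.58 to 8.67 and from 7.65 to 9.83 under phenformin, where the lines overlapped. Krt8, an epithelial keratin, lay between 12.13 and 12.45 in all 22 arrays, and Sftpc, the surfactant protein that defines alveolar type 2 cells, between 13.10 and 13.67, so lung RNA was present in every array. In such bulk samples, fewer cells of a type and less RNA per cell cannot be told apart. Of the 33 members, 31 lay above the array's median negative control in all 22 arrays, while Mlxipl did so in 20 and Idi1 in 13.

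Promoter sequence gives the background to what the members share. The window from 250 bases before to 50 bases after the gene's start was available from RefSeq (GRCm38.p6) for 30 of the 36 members. Of these, 18 were of the sterol and 12 of the fatty acid branch. The 30 members had 38 windows, since some genes have several starts. Here and for all genes, a gene was counted where any of its windows held the motif. The NF-Y box CCAAT, searched on both strands, stood in 17 of the 18 sterol genes (94.4%), in 8 of the 12 fatty acid genes (66.7%) and in 41.1% of all 27025 genes with a window. The Sp1 box GGGCGG was found in 17 of 18 sterol genes (94.4%), in 6 of 12 fatty acid genes (50.0%) and in 38.2% of all genes. The E-box CACGTG was found in 5 of 18 (27.8%), in 2 of 12 (16.7%) and in 8.09% of all genes. The SREBP motif TCACNCCAC, from sterol-regulated promoters, matched letter for letter only in Hmgcs1 among the sterol genes and only in Mlxipl among the fatty acid genes, against 1.44% of all genes. Where it shared a window with an NF-Y box, no base belonged to both. A match is a run of letters and does not show binding.

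The windows of 5 members are printed as examples. Srebf2, Acly and Acacb were higher and Sc5d lower in PGC-1alpha metastases over both treatments. Hmgcs1 holds the SREBP motif and acts early in the branch. Elovl6 was also higher, and Acaca, Scd1, Fads2, Elovl1 and Elovl5 lower, over both, and they are not printed. Of these, Elovl1 and Elovl5 had an NF-Y box, Elovl6, Acaca and Fads2 had none, and Scd1 had no window. The printed windows thus do not stand for all members that passed. Capitals mark the NF-Y box (CCAAT, or ATTGG where it lies on the other strand) and, in Hmgcs1 alone, also the SREBP motif TCACCCCAC, which begins at position -137 from the gene's start. Each is written 5′ to 3′ on the gene's own strand. The windows are chr13:119690101-119690400 (+ strand) for Hmgcs1, chr15:82147019-82147318 (+ strand) for Srebf2, chr9:42264251-42264550 (- strand) for Sc5d, chr11:100527951-100528250 (- strand) for Acly and chr5:114165268-114165567 (+ strand) for Acacb.
Hmgcs1: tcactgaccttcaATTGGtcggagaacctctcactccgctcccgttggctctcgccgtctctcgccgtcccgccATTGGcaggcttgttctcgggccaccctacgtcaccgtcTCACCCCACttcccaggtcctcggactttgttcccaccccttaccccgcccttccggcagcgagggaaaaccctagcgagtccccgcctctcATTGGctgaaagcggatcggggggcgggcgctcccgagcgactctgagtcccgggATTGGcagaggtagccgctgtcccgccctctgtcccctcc
Srebf2: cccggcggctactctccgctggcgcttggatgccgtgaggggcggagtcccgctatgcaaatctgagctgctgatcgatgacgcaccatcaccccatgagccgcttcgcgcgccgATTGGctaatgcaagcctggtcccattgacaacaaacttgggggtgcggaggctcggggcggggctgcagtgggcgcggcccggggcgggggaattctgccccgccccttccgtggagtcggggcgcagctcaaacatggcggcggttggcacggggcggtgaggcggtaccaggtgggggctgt
Sc5d: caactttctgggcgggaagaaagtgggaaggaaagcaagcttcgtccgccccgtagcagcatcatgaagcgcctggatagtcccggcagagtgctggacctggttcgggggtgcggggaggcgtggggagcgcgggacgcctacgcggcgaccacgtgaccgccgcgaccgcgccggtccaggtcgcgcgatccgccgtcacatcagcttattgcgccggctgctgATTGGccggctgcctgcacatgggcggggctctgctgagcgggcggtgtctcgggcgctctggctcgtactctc
Acly: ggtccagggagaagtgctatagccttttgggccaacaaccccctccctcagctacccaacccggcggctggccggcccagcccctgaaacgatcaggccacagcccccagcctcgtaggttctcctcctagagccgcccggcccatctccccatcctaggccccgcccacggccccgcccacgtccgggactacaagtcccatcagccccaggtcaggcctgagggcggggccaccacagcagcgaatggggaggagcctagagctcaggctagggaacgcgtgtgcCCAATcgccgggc
Acacb: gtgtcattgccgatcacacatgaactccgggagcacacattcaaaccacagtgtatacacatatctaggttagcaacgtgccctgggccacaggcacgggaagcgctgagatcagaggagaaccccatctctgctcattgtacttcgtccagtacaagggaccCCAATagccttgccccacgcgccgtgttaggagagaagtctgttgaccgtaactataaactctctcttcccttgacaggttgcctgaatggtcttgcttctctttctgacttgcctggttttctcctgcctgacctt
The Hmgcs1 window holds 5 capital runs, 4 of them NF-Y boxes, while each of the other printed windows holds 1 box.

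Line and treatment were compared in 1 fit over the 4 groups with limma, and a gene is said to have passed where its Benjamini-Hochberg adjusted p over all 15545 genes was under 0.05. Between the lines under PBS, 0 of 20 sterol genes and 0 of 13 fatty acid genes passed, against 2.93% of all genes tested (1.21% higher, 1.72% lower). There, 4 sterol and 6 fatty acid genes had an unadjusted p under 0.05, against 18% of all genes. Under phenformin, 1 sterol gene (lower) and 6 fatty acid genes (2 higher, 4 lower) passed in PGC-1alpha metastases, against 21.1% of all genes (10.0% higher, 11.1% lower). With both treatments averaged, 2 sterol genes (1 higher, 1 lower) and 8 fatty acid genes (3 higher, 5 lower) passed, against 24.6% of all genes (11.3% higher, 13.3% lower). That average is the mean of the PBS and phenformin differences and holds no further samples. The sterol share lay below the share of all genes in each of these comparisons, and the fatty acid share above it in the last pair. The median difference of the sterol genes was -0.08 under PBS, -0.14 under phenformin and -0.09 over both. That of the fatty acid genes was -0.09, -0.11 and -0.09, while the median of all genes was between 0.00 and 0.02. The brightest 3109 genes had medians of -0.03, -0.13 and -0.08 in the same order. By mean signal, the fatty acid members other than Acaca, Acacb, Elovl6 and Mlxipl lay at percentiles 81.4 to 99.0 of the tested genes. The part of brightness in these medians was not tested.

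**Figure D1:**
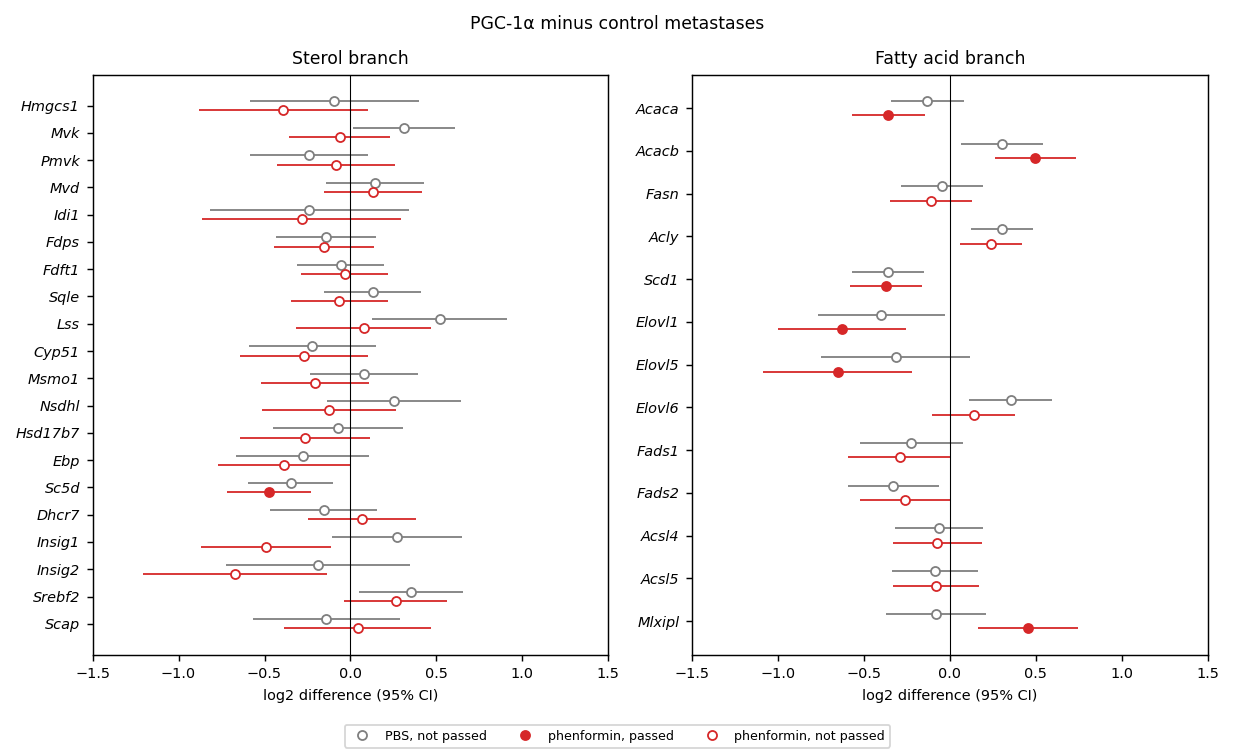
Log2 difference, PGC-1alpha minus control, of the 33 members (rows, by branch) under PBS and under phenformin, with 95% confidence intervals from limma. Sc5d lies at -0.47 and Acacb at 0.50 under phenformin, where the sterol genes run from -0.67 to 0.26, with 15 of 20 below 0.

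The split between higher and lower genes depends on the scaling of the arrays. Under phenformin 1560 genes were higher and 1723 lower with the deposited values, 1112 and 2203 after centring each array on its median, and 1337 and 1096 after quantile normalisation. Over both treatments the counts were 1760 and 2071, 1406 and 2407, and 1884 and 1633. Dim genes tended to read higher and bright genes lower in PGC-1alpha arrays under phenformin, with a median difference of 0.18 in the dimmest 3109 genes and -0.13 in the brightest 3109. Each member difference that passed kept its direction under both scalings. After quantile normalisation Acaca, Elovl1, Elovl5 and Mlxipl under phenformin and Acaca, Elovl5 and Fads2 over both no longer passed, with adjusted p of 0.0568 to 0.177. Without the 4 arrays of lowest limma weight (control PBS 1 and 5, control phenformin 2 and 3), Acaca, Mlxipl and Scd1 under phenformin and Acaca, Elovl6, Fads2 and Srebf2 over both no longer passed, with adjusted p of 0.0506 to 0.224.

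Of the sterol regulators, Srebf2, which encodes SREBP-2, was higher in PGC-1alpha metastases over both treatments. Under PBS it read 9.40, 9.93, 9.89, 10.18 and 9.80 in the control arrays and 10.09 to 10.51 (median 10.14) in the PGC-1alpha arrays. Under phenformin it read 9.93, 9.51, 9.93, 9.70 and 10.21 in control and 9.78 to 10.50 (median 10.10) in PGC-1alpha arrays. The lines overlapped under both treatments, by a single control array under PBS. The difference over both was 0.31 (SE 0.10, adjusted p = 0.0328 in limma), and 0.35 (adjusted p = 0.197) and 0.26 (adjusted p = 0.195) within PBS and phenformin. It no longer passed without any 1 of 6 arrays, namely PGC-1alpha phenformin 3 and 6, PGC-1alpha PBS 3, control phenformin 2 and 4, and control PBS 1, with an adjusted p of up to 0.0651. Without the 4 arrays of lowest weight it was 0.18 (adjusted p = 0.224), and with the lung marker score as a covariate 0.21 (adjusted p = 0.324).

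The proteins that hold SREBP-2 back did not pass in a comparison of lines. Insig1, itself a target of SREBP-2, read 8.22, 8.64, 8.27, 8.44 and 8.58 in control arrays under phenformin and 7.40 to 8.49 (median 7.93) in PGC-1alpha arrays, a difference of -0.49 (SE 0.18, adjusted p = 0.0565). Insig2, a less sterol-dependent relative, read 6.56 to 7.25 in control arrays under phenformin and 5.60 to 6.44 in PGC-1alpha arrays. Insig2 thus did not overlap between the lines under phenformin, but its difference of -0.67 (SE 0.26) had an adjusted p of 0.0646. Non-overlapping groups under phenformin with PGC-1alpha lower were found for 4.94% of all genes tested and for 2 of 20 sterol genes, the other being Sc5d, and in either direction for 11.0% of all genes. The escort Scap differed by -0.14 under PBS and 0.04 under phenformin, with adjusted p of 0.771 and 0.903.

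Among the sterol enzymes, Sc5d was the single gene to pass. It encodes the C5 desaturase that acts late in the trimming of lanosterol to cholesterol. In PBS arrays it read 10.65, 10.58, 10.39, 10.60 and 10.36 in control and 9.91 to 10.45 (median 10.20) in PGC-1alpha arrays. In phenformin arrays it read 10.61, 10.73, 10.44, 10.96 and 10.42 in control and 10.01 to 10.38 (median 10.13) in PGC-1alpha arrays. The PGC-1alpha arrays were lower throughout under phenformin and overlapped slightly with control under PBS. Sc5d was lower by 0.47 (SE 0.12, 1.39-fold, adjusted p = 0.00955) under phenformin and by 0.41 (SE 0.08, adjusted p = 0.00164) over both, and by 0.35 (adjusted p = 0.111) under PBS. It passed without any 1 array in both of these comparisons.

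Early enzymes of the sterol branch showed no difference that passed. Hmgcs1, the HMG-CoA synthase that makes the precursor of mevalonate, read 8.41, 8.10, 7.63, 8.08 and 7.83 in control and 6.99 to 8.49 (median 8.07) in PGC-1alpha arrays under PBS. With phenformin it read 8.27, 7.58, 7.59, 8.56 and 8.60 in control and 7.06 to 7.91 (median 7.87) in PGC-1alpha arrays. The arrays of the lines overlapped under both treatments. Its difference was -0.09 under PBS and -0.39 under phenformin (95% confidence interval -0.88 to 0.10, adjusted p = 0.237). Mvk, Pmvk and Mvd, which carry mevalonate to isopentenyl diphosphate, differed by -0.06, -0.08 and 0.13 under phenformin, with adjusted p of 0.773, 0.747 and 0.503. Their PBS group means lay further apart for Mvk and Pmvk, though none passed. These means were 6.72, 7.12 and 7.13 in control and 7.03, 6.88 and 7.27 in PGC-1alpha metastases. Idi1, which isomerises that product, lay close to the negative controls, at 4.79 to 5.16 in the group means.

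Sqle, the squalene epoxidase, did not pass. It read 7.77, 8.27, 7.91, 8.34 and 8.43 in control under PBS and 8.04 to 8.67 (median 8.22) in PGC-1alpha arrays under PBS. It read 8.20, 8.18, 8.12, 8.29 and 8.43 in control under phenformin and 7.89 to 8.41 (median 8.18) in PGC-1alpha arrays under phenformin. The 4 groups overlapped. The line difference over both treatments was 0.03 (95% confidence interval -0.17 to 0.23, adjusted p = 0.826). Of the later enzymes, Lss, which folds squalene epoxide into lanosterol, differed by 0.52 under PBS (adjusted p = 0.142) and 0.08 under phenformin, and Ebp, a sterol isomerase, by -0.33 over both treatments (adjusted p = 0.0681). The remaining sterol enzymes, among them Fdps, Fdft1, Cyp51 and Dhcr7, had differences over both treatments between -0.25 and 0.06.

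**Figure D2:**
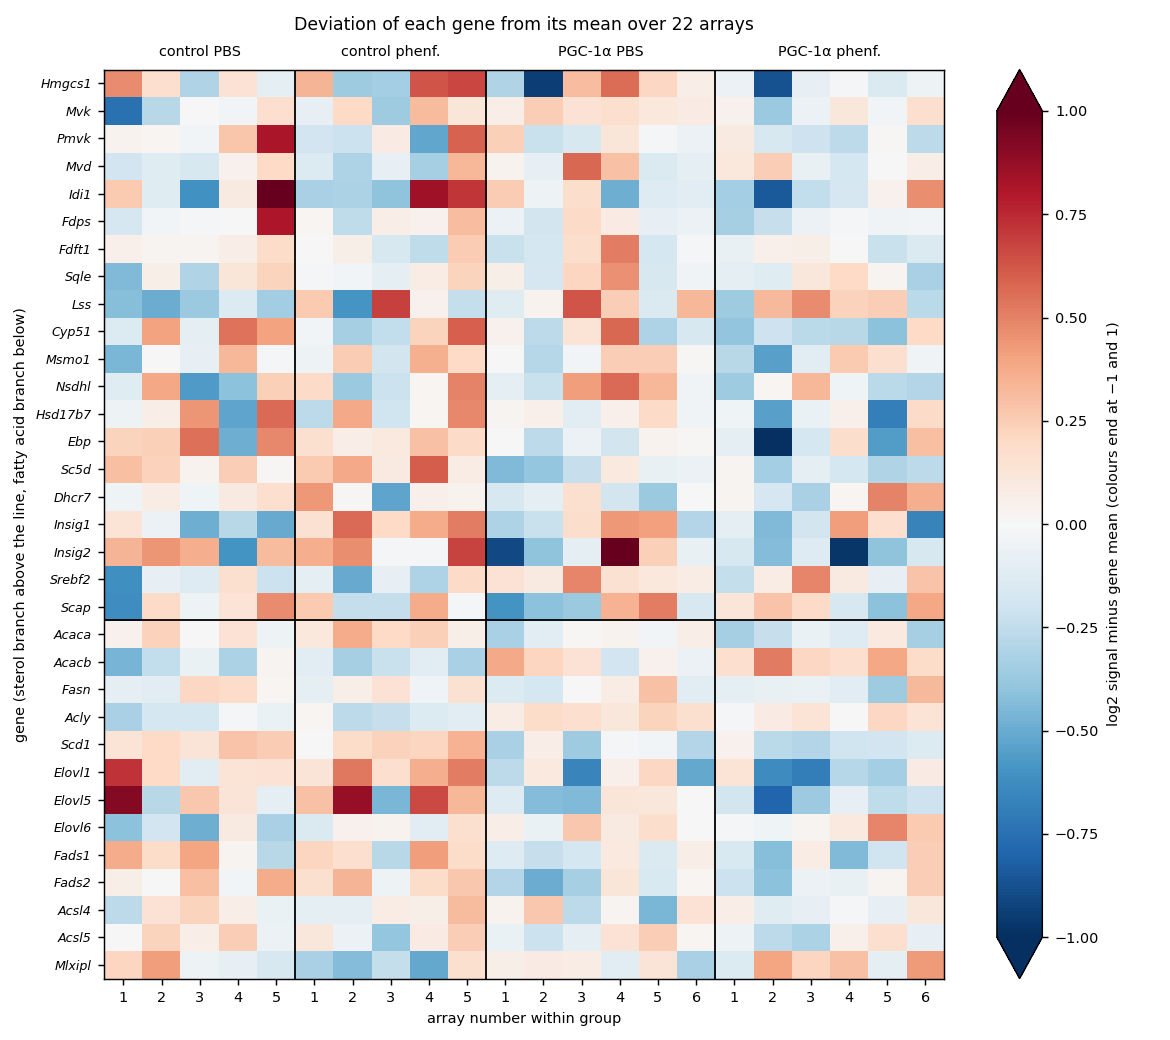
Log2 signal of each of the 33 members minus its own mean over the 22 arrays, with arrays in columns by group and genes in rows by branch (colour scale in log2 units). Acly and Acacb are higher, and Scd1, Fads2 and Sc5d lower, in most PGC-1alpha arrays.

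In the fatty acid branch, Acly was higher in PGC-1alpha metastases over both treatments. Acly, the ATP citrate lyase that makes cytosolic acetyl-CoA, read 11.45, 11.59, 11.60, 11.76 and 11.70 in control under PBS and 11.85 to 11.99 (median 11.94) in PGC-1alpha arrays. With phenformin it read 11.79, 11.51, 11.54, 11.63 and 11.66 in control and 11.75 to 11.98 (median 11.88) in PGC-1alpha arrays. The lines were separate under PBS, where 3.26% of all genes did not overlap (1.65% with PGC-1alpha higher, 1.61% lower), and overlapped by 1 control array under phenformin. Acly was higher by 0.27 (SE 0.06, 1.21-fold, adjusted p = 0.00341) over both treatments, with 0.30 (adjusted p = 0.0555) under PBS and 0.24 (adjusted p = 0.0526) under phenformin.

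The acetyl-CoA carboxylases, which make malonyl-CoA, differed in opposite directions. Acaca, the cytosolic form that feeds synthesis, read 8.54, 8.81, 8.63, 8.67 and 8.50 in control and 8.10 to 8.53 (median 8.26) in PGC-1alpha arrays under phenformin. With PBS it read 8.48, 8.67, 8.44, 8.58 and 8.38 in control and 8.11 to 8.51 (median 8.43) in PGC-1alpha arrays. The lines overlapped under both treatments, by the highest PGC-1alpha array alone under phenformin. Acaca was lower by 0.36 (SE 0.10, adjusted p = 0.0187) under phenformin and by 0.25 (SE 0.07, adjusted p = 0.0177) over both. The difference under phenformin had an adjusted p of 0.0517 without control array 2 under phenformin, and of 0.177 after quantile normalisation, where the difference was -0.20 (and -0.15 over both, adjusted p = 0.148).

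Acacb, the form at the mitochondrial outer membrane whose malonyl-CoA restrains fatty acid import for oxidation, was higher. Under phenformin it read 7.34, 7.12, 7.23, 7.34 and 7.13 in control and 7.62 to 7.97 (median 7.65) in PGC-1alpha arrays, so that the lines did not overlap, as was so with PGC-1alpha higher for 6.07% of all genes. With PBS it read 6.99, 7.21, 7.39, 7.13 and 7.48 in control and 7.26 to 7.83 (median 7.55) in PGC-1alpha arrays, with overlap. The difference was 0.50 (SE 0.11, 1.41-fold, adjusted p = 0.0063) under phenformin and 0.40 (SE 0.08, adjusted p = 0.00156) over both, and 0.30 (adjusted p = 0.155) under PBS. Acacb passed in both comparisons without any 1 array.

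Fasn, the synthase that assembles palmitate, did not pass. It read 9.33, 9.30, 9.63, 9.60 and 9.44 in control and 9.24 to 9.72 (median 9.37) in PGC-1alpha arrays under PBS. It read 9.33, 9.48, 9.57, 9.39 and 9.57 in control and 9.06 to 9.74 (median 9.33) in PGC-1alpha arrays under phenformin. The lines overlapped under both treatments. The difference was -0.11 under phenformin (95% confidence interval -0.35 to 0.13, adjusted p = 0.505) and -0.08 over both (adjusted p = 0.490).

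**Figure D3:**
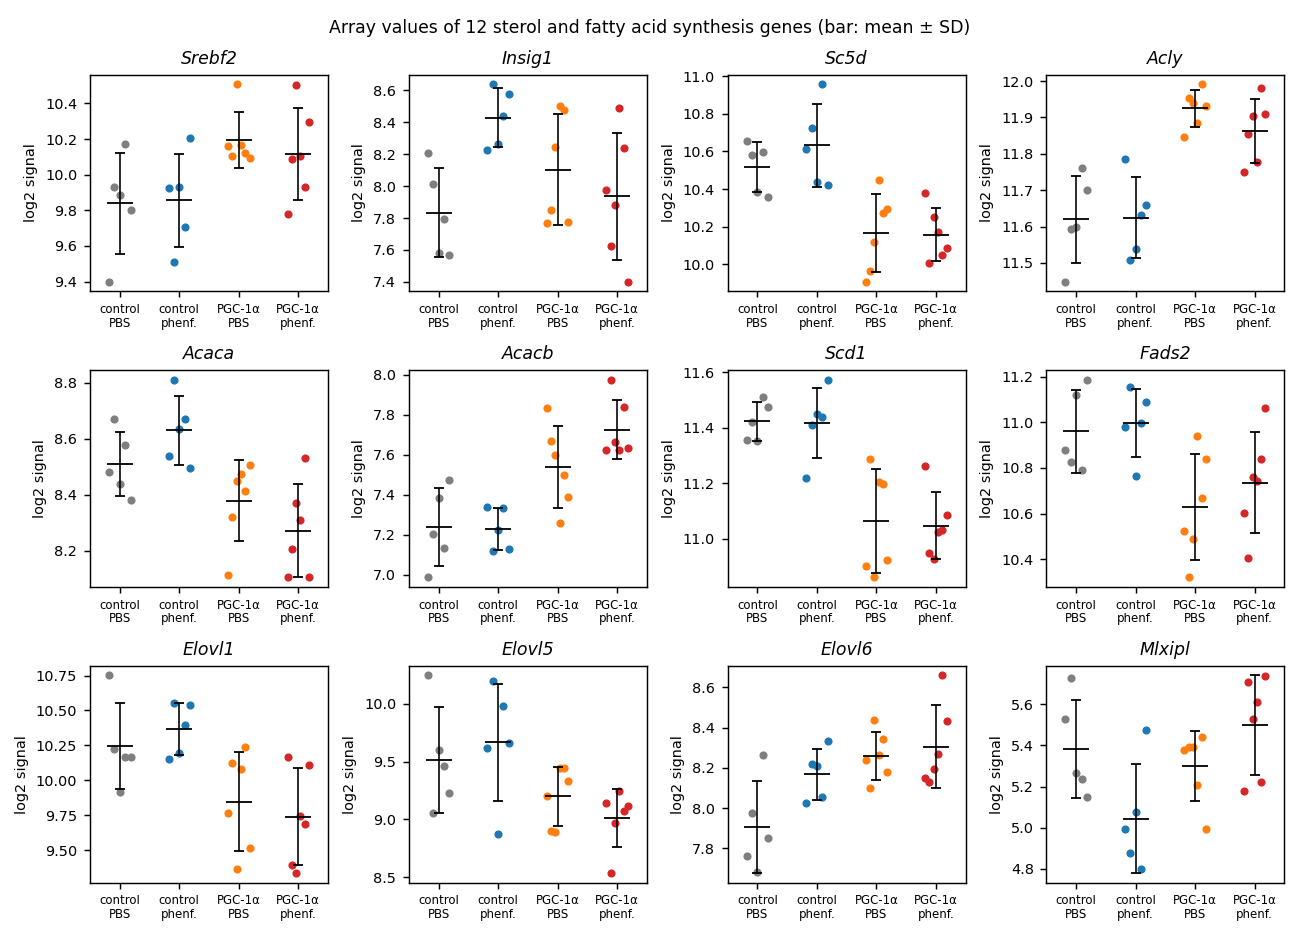
Log2 signal per array (points) of 12 members in the 4 groups, with the group mean and SD as bars. Scd1 lies at 11.22 to 11.57 in the control arrays and 10.86 to 11.29 in the PGC-1alpha arrays, and Acly at 11.45 to 11.79 and 11.75 to 11.99.

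The desaturases Scd1 and Fads2 were lower in PGC-1alpha metastases over both treatments. Scd1, which puts the first double bond into palmitate and stearate, read 11.36, 11.42, 11.35, 11.51 and 11.47 in control and 10.86 to 11.29 (median 11.06) in PGC-1alpha arrays under PBS. Under phenformin it read 11.22, 11.41, 11.45, 11.44 and 11.57 in control and 10.93 to 11.26 (median 11.03) in PGC-1alpha arrays. The lines were separate under PBS and overlapped by 1 control array under phenformin. Scd1 was lower by 0.37 (SE 0.10, adjusted p = 0.0147) under phenformin and by 0.36 (SE 0.07, 1.29-fold, adjusted p = 0.00122) over both, with -0.36 (adjusted p = 0.0534) under PBS. Fads2, the desaturase that begins the making of long polyunsaturated fatty acids, read 10.88, 10.82, 11.12, 10.79 and 11.19 in control and 10.32 to 10.94 (median 10.59) in PGC-1alpha arrays under PBS. Under phenformin Fads2 read 10.98, 11.15, 10.76, 11.00 and 11.09 in control and 10.41 to 11.06 (median 10.75) in PGC-1alpha arrays. Fads2 overlapped under both treatments and was lower by 0.30 (SE 0.09, adjusted p = 0.0208) over both. Fads1, the next desaturase of that route, differed by -0.26 (adjusted p = 0.0663).

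The elongases differed in direction. Elovl1, which extends saturated and monounsaturated fatty acids to very long chains, read 10.16, 10.56, 10.19, 10.39 and 10.54 in control and 9.34 to 10.17 (median 9.71) in PGC-1alpha arrays under phenformin. Under PBS Elovl1 read 10.75, 10.23, 9.91, 10.17 and 10.17 in control and 9.37 to 10.24 (median 9.92) in PGC-1alpha arrays. It overlapped under both treatments and was lower by 0.63 (SE 0.18, 1.54-fold, adjusted p = 0.0185) under phenformin and by 0.51 (SE 0.13, adjusted p = 0.00607) over both. The latter was -0.29 (adjusted p = 0.207) with the lung marker score as a covariate and -0.28 (adjusted p = 0.153) with an alveolar type 2 score. Elovl5, which extends polyunsaturated fatty acids, read 9.62, 10.20, 8.87, 9.99 and 9.66 in control and 8.54 to 9.25 (median 9.10) in PGC-1alpha arrays under phenformin. Under PBS Elovl5 read 10.25, 9.05, 9.60, 9.46 and 9.23 in control and 8.89 to 9.45 (median 9.27) in PGC-1alpha arrays. Elovl5 overlapped under both treatments, with 1 low control array under phenformin. It was lower by 0.65 (SE 0.21, 1.57-fold, adjusted p = 0.0309) under phenformin and by 0.48 (SE 0.15, adjusted p = 0.0204) over both. The first of these Elovl5 values passed no longer without any 1 of PGC-1alpha phenformin 2 or 3 or control phenformin 2, 4 or 5, with an adjusted p of up to 0.0930.

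Elovl6, which extends palmitate to stearate, was the elongase that was higher. It read 7.76, 7.98, 7.68, 8.26 and 7.85 in control and 8.10 to 8.44 (median 8.25) in PGC-1alpha arrays under PBS. Under phenformin it read 8.02, 8.22, 8.21, 8.06 and 8.33 in control and 8.13 to 8.66 (median 8.23) in PGC-1alpha arrays. The lines overlapped under both treatments. It was higher by 0.25 (SE 0.08, adjusted p = 0.0332) over both, with 0.35 (adjusted p = 0.101) under PBS and 0.14 (adjusted p = 0.405) under phenformin. It passed no longer after centring of the arrays (adjusted p = 0.0545) or without any 1 of 6 arrays, namely PGC-1alpha phenformin 5 and 6, PGC-1alpha PBS 3, control phenformin 1 and 4, and control PBS 3, where the adjusted p reached 0.0644.

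Mlxipl, which encodes the sugar-responsive factor ChREBP, was dim. It read 4.99, 4.88, 5.07, 4.80 and 5.48 in control and 5.18 to 5.74 (median 5.57) in PGC-1alpha arrays under phenformin, against median negative controls averaging 4.83 and 4.78 in those groups. Under PBS it read 5.53, 5.73, 5.27, 5.23 and 5.15 in control and 4.99 to 5.44 (median 5.38) in PGC-1alpha arrays. The lines overlapped under both treatments. It was higher by 0.45 (SE 0.14, adjusted p = 0.0267) under phenformin and differed by -0.08 under PBS and by 0.19 over both (adjusted p = 0.168). The value under phenformin passed no longer without any 1 of PGC-1alpha phenformin 2 or 6 or control phenformin 2 or 4, with an adjusted p of up to 0.0712. The acyl-CoA synthetases Acsl4 and Acsl5, which activate fatty acids for use, differed by -0.07 and -0.09 over both treatments, with adjusted p of 0.593 and 0.470.

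The PBS and phenformin comparisons of the lines share no array. The sign of the difference was the same in both for 12 of 13 fatty acid genes (92.3%), Mlxipl being the exception, for 13 of 20 sterol genes (65%) and for 69.7% of all genes tested.

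Phenformin itself moved no member past the threshold. In limma, 0 of 15545 genes passed in either line, in the difference between the lines' responses or over both lines (0%), while 1498 genes in control metastases and 674 in PGC-1alpha metastases had an unadjusted p under 0.05, as did 1724 for the difference between the responses and 616 over both lines. Among the members, that unadjusted count was 1 of 20 sterol and 2 of 13 fatty acid genes in control metastases and 0 and 0 in PGC-1alpha metastases. It was 1 and 1 for the difference between the responses, and 0 and 0 over both lines. In the same order, the all-gene counts were 9.64%, 4.34%, 11.1% and 3.96% of the genes tested. The median change of the sterol genes was 0.01 in control and -0.12 in PGC-1alpha metastases, and that of the fatty acid genes 0.01 and -0.06. In PGC-1alpha metastases the median change was 0.06 in the dimmest 3109 genes and -0.06 in the brightest 3109. The all-gene medians were -0.01 in both lines.

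Insig1 had the largest sterol change with phenformin in control metastases. It read 8.21, 8.01, 7.58, 7.79 and 7.57 under PBS and 8.22, 8.64, 8.27, 8.44 and 8.58 under phenformin in control arrays. In PGC-1alpha arrays it read 7.77 to 8.50 (median 8.05) under PBS and 7.40 to 8.49 (median 7.93) under phenformin. The control arrays did not overlap between treatments, as was so for 1.28% of all genes tested, and the PGC-1alpha arrays did. Insig1 was the single member without overlap between treatments in control metastases, and 0 of 33 were so in PGC-1alpha metastases (0.219% of all genes). The difference was 0.60 (SE 0.19, adjusted p = 0.312) in control and -0.17 (SE 0.17, adjusted p = 0.957) in PGC-1alpha metastases. The difference between these responses was -0.76 (SE 0.26) and did not pass (adjusted p = 0.335). Mlxipl changed by -0.34 (adjusted p = 0.458) and 0.20 with phenformin in the same order, with a difference between the responses of 0.53 (adjusted p = 0.360).

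**Figure D4:**
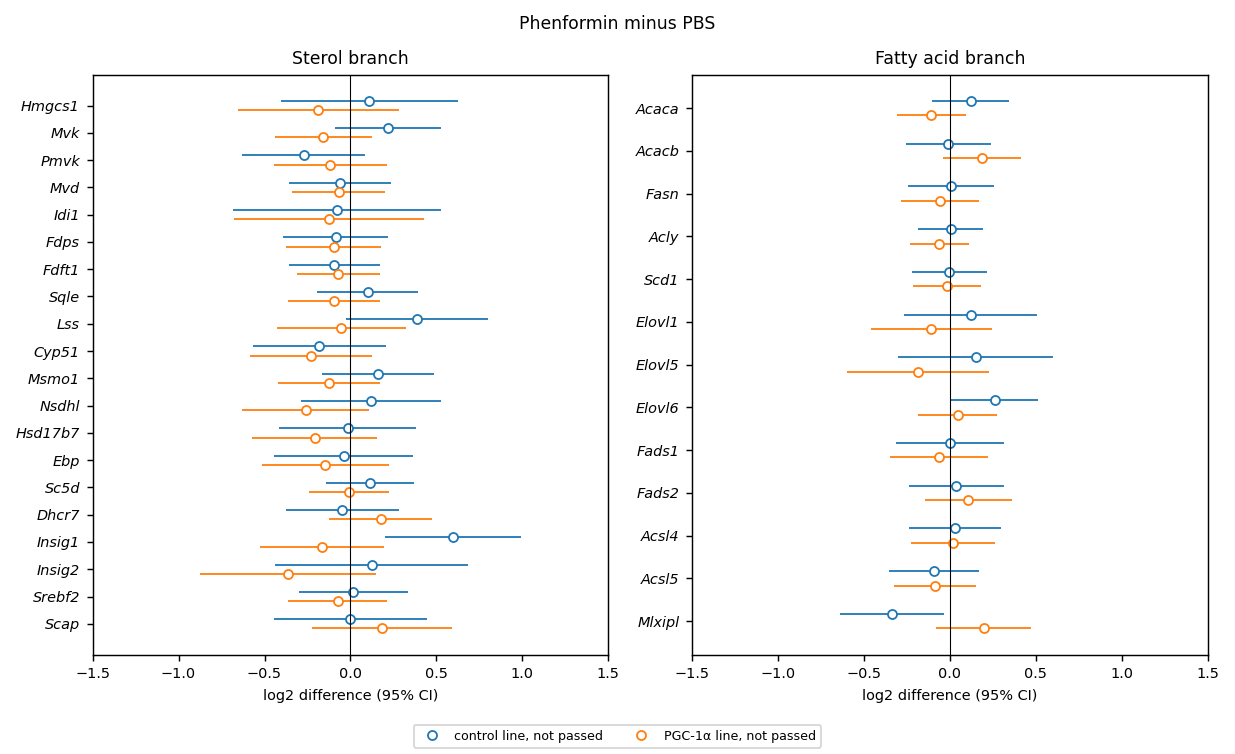
Log2 difference, phenformin minus PBS, of the 33 members in control and in PGC-1alpha metastases, with 95% confidence intervals from limma. Insig1 lies at 0.60 in control and at -0.17 in PGC-1alpha metastases, and none of the 33 passed.

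Other genes of these pathways were also compared between the lines. Of 15 other sterol genes tested, 0 passed under PBS (2.93% of all genes), 2 were lower under phenformin (13.3%, against 21.1% of all genes) and 4 were lower over both (26.7%, against 24.6%). Under phenformin these were Erg28, a scaffold of sterol demethylation, by 0.46 (adjusted p = 0.0162), and Rnf139, a ubiquitin ligase of the endoplasmic reticulum, by 0.41 (adjusted p = 0.0101). Over both, Lbr, a sterol reductase, was lower by 0.36 (adjusted p = 0.0341) and Npc2, a lysosomal cholesterol carrier, by 0.23 (adjusted p = 0.0342), with Erg28 at -0.29 and Rnf139 at -0.25. Of 24 other fatty acid genes tested, 1 was lower under PBS (4.17%, against 2.93% of all genes), 5 under phenformin (20.8%, against 21.1%) and 8 over both (33.3%, against 24.6%), and none was higher. Counted in either direction, the shares of these context genes under phenformin did not exceed the share of all genes. All context genes that passed were lower, however. Of all genes, 1.72% were lower under PBS, 11.1% under phenformin and 13.3% over both. Against these, the context shares were higher under phenformin and over both in each branch, and under PBS in the fatty acid branch.

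Elovl7, an elongase of long-chain fatty acids, had the largest difference among these. It read 9.36 to 9.96 in control and 8.48 to 9.05 in PGC-1alpha arrays under PBS, without overlap, and 9.25 to 10.17 and 8.35 to 9.27 under phenformin, with a narrow overlap. It was lower by 0.88 (SE 0.16, 1.84-fold, adjusted p = 0.0067) under PBS, by 0.94 (adjusted p = 0.00135) under phenformin and by 0.91 (adjusted p = 2.56e-05) over both. Over both treatments the dehydratases Hacd3, Hacd2 and Hacd1 were lower by 0.43, 0.34 and 0.32 and the reductase Tecr by 0.30 (adjusted p = 0.0073, 0.00798, 0.014 and 0.02). The ketoacyl reductase Hsd17b12 was lower by 0.27 (adjusted p = 0.044), and is named after its value was seen. Agpat2, an acyltransferase of glycerolipid synthesis, was lower by 0.68 (adjusted p = 0.00556) under phenformin and by 0.54 (adjusted p = 0.0014) over both. Slc25a1, the mitochondrial citrate exporter, was lower by 0.30 (adjusted p = 0.0369) under phenformin. Slc25a1 and Hacd2 lie on chromosome 16, where the median difference of 490 tested genes was -0.14 under PBS and -0.16 under phenformin.

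Markers of lung, immune and mammary epithelial cells were compared between the lines in the same fit. Of 12 alveolar type 2 markers, 0 passed under PBS, 2 were lower under phenformin (16.7%, against 21.1% of all genes) and 4 over both (33.3%, against 24.6%), with Sftpc at 13.38 to 13.46 in the group means, and their summed linear signal ran from 29037 to 32791 and from 26625 to 33112 in control arrays under PBS and phenformin, and from 23943 to 31751 and from 23689 to 32957 in PGC-1alpha arrays. Of 9 neutrophil markers, 4 were lower under PBS (44.4%, against 2.93% of all genes) and 5 under phenformin (55.6%, against 21.1%), with sums of 2762 to 3405 and 2143 to 3036 in control and 1460 to 2559 and 1502 to 3679 in PGC-1alpha arrays. Of 13 endothelial markers, 0, 1 and 2 were lower under PBS, under phenformin and over both (0%, 7.69% and 15.4%), and of 12 mammary epithelial markers 0, 1 and 3 (0%, 8.33% and 25%). Of all genes 2.93%, 21.1% and 24.6% passed in these comparisons, and 1.72%, 11.1% and 13.3% passed as lower. The shares as lower are the like measure for the alveolar type 2, neutrophil, endothelial and mammary epithelial counts above. All-gene median differences were 0.01 under PBS and 0.02 over both treatments. Alveolar type 2 markers had a median difference of -0.27 under PBS (10 of 12 below 0) and -0.24 over both (11 of 12). Alveolar type 1 markers were at -0.37 (8 of 8) and -0.26 (7 of 8), and endothelial at -0.25 (12 of 13) and -0.31 (11 of 13). Mammary epithelial markers were at -0.14 (9 of 12) and -0.17 (10 of 12). Over both treatments, 2 of 8 alveolar type 1 markers, 1 of 9 macrophage markers and 2 of 9 T and NK cell markers were lower and 1 macrophage marker was higher, and of 4 adipocyte markers tested 1 was higher and 1 lower. Under phenformin, 1 T and NK cell marker was higher and 1 lower. Adipoq, which defines fat cells, lay at the level of the negative controls, with group means of 4.69 to 4.85.

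**Figure D5:**
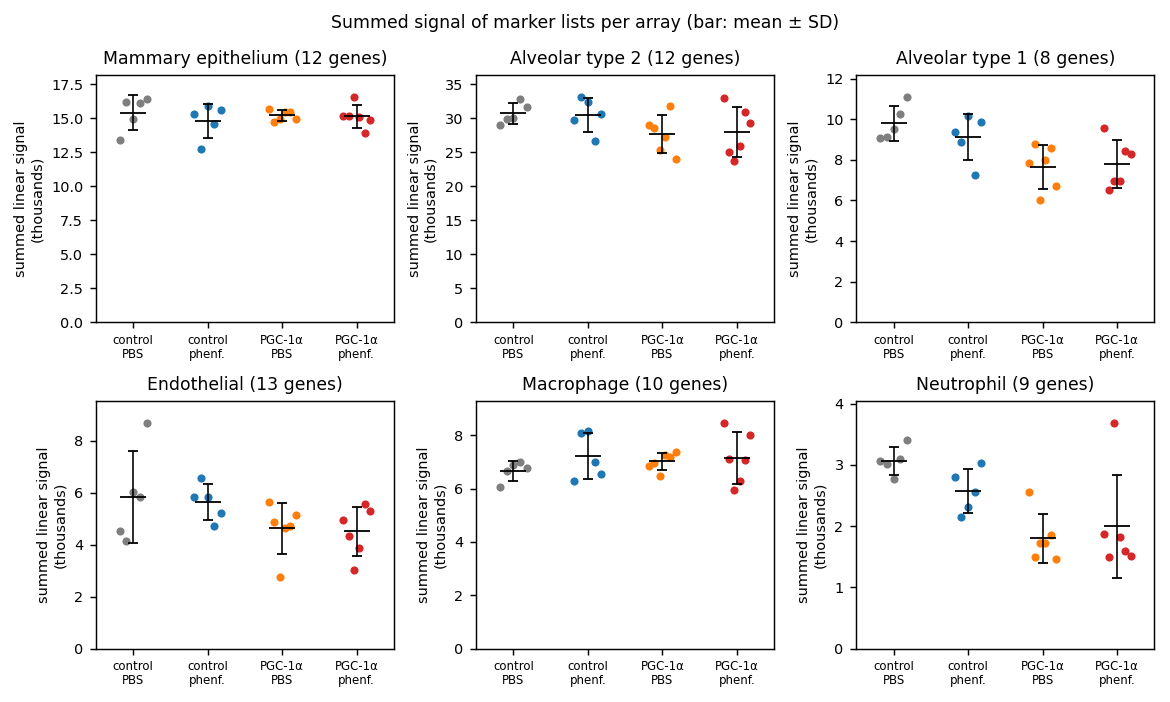
Summed linear signal of the markers of each cell type per array (points) in the 4 groups, with mean and SD as bars and an axis of its own for each list starting at 0. The neutrophil sums of control arrays under PBS, 2762 to 3405, lie above those of PGC-1alpha arrays under PBS, 1460 to 2559.

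With a score of lung markers (alveolar and endothelial) as a covariate, 2 fatty acid genes passed under phenformin in place of 6 and 2 over both in place of 8. With a score of immune markers the counts were 1 and 0. Acacb passed under phenformin in both of these fits (adjusted p = 0.0194 and 0.0490), with differences of 0.50 and 0.47. Sc5d differed by -0.52 and -0.41 under phenformin, and passed with the lung score (adjusted p = 0.0175) but not with the immune score (adjusted p = 0.0805). Scd1, Elovl1, Elovl5 and Mlxipl under phenformin passed in neither fit. Their differences with the lung and immune scores were -0.29 and -0.29 for Scd1 (-0.37 without a score), -0.44 and -0.48 for Elovl1 (-0.63), -0.63 and -0.78 for Elovl5 (-0.65) and 0.39 and 0.42 for Mlxipl (0.45). Over both treatments Sc5d, Acacb and Acly passed with the lung score (adjusted p = 0.0118, 0.0224 and 0.0321) and no member passed with the immune score, where the differences were -0.35 for Sc5d (-0.41 without a score), 0.37 for Acacb (0.40), 0.26 for Acly (0.27) and -0.61 for Elovl5 (-0.48). The immune score ran from -0.02 to 0.56 in control and from -0.61 to 0.34 in PGC-1alpha arrays, and so differed with the line. With it the SE over both treatments went from 0.08 to 0.11 for Acacb and from 0.06 to 0.08 for Acly. These fits cannot separate cell content from line, and the part of other cells in the results was not tested.

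Arrays of the same group also differed from each other. The median deviation of the 20 sterol genes from their own means was highest in control phenformin 5, at 0.28, where 18 of 20 genes lay above their mean, and in PGC-1alpha PBS 4, at 0.25 with 17 of 20. It was lowest in PGC-1alpha phenformin 2, at -0.22 with 6 of 20, and in PGC-1alpha PBS 2, at -0.20 with 4 of 20. The group medians of this deviation lay between -0.07 and 0.04, and the 6 PGC-1alpha arrays under phenformin were all below 0. For the 13 fatty acid genes the array values ran from -0.23 to 0.19.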

How the data were processed

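Gene expression was measured with microarrays in 22 samples. The values are log2 signals, normalised and deposited by the authors. Per the submitters' processing notes oligo was used, and the background correction and normalisation are not given in the sources used here. Another deposited table was not used, because its 22 columns match no sample name.

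Of 22206 probe sets that are not controls, 19572 had 1 gene symbol in the platform annotation and 2634 had none. For 55 genes with several probe sets the one with the highest mean was used. A gene was tested where 5 or more arrays had it above their own 25th percentile. The number of arrays limits the precision.

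limma 3.58.1 (R 4.3.3) fitted the 4 groups in a single model by lmFit and eBayes, which left 18 residual degrees of freedom and estimated 5.67 prior ones, with two-sided p-values adjusted by Benjamini-Hochberg over 15545 genes. Errors are standard errors (SE) of log2 differences, and intervals are at 95%. Lists are described by counts and medians. Members, lists and tests were chosen with earlier results of these data known.

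Array values (each one in the control groups of 5; the lowest, median and highest in the PGC-1alpha groups of 6) are given for each member that passed in any comparison and for Hmgcs1, Sqle, Srebf2, Insig1, Fasn, Acaca, Scd1 and Mlxipl. Other members are given by range with up to 4 examples per branch, and other pathway genes that passed are named, at most 6 per branch and comparison by size. A few further members (Insig2, Scap, Lss, Ebp, Mvk, Pmvk, Mvd, Idi1, Fads1, Acsl4 and Acsl5) were added to this rule after their values were seen.

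The fit was tested on simulated data for the comparison of lines under PBS (15545 genes): 85% of 100 genes changed by 1 on the log2 scale and 29% of 100 changed by 0.5 were recovered, with 4 false among 118 called. Alternatives were the filter, array scaling, probe set averaging, the samples fitted, each array left out, the 4 arrays of lowest limma weight left out, marker scores as covariates and a replicate block. Promoter windows came from the RefSeq table (GRCm38.p6). The files name no build. Plots were made with matplotlib 3.10.9 (Python 3.11.15).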

Additional observations from a re-analysis of the deposited data

Results flagged for a closer look

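Single arrays stood apart from the rest of their group for 6 members, in 7 of the 132 gene and group combinations examined, where chance gives about 6.6 (1 in 20). Hmgcs1 read 7.06 in PGC-1alpha phenformin 2, with the next array at 7.79, and the group mean is 7.86 without it and 7.73 with it. Fdps read 10.49 in control PBS 5, with the next array at 9.69. Fdft1 read 9.45 in that same array, with the next at 9.34. Cyp51 read 7.83 in PGC-1alpha phenformin 6, with the next at 7.42. Insig2 read 5.98 in control PBS 4 (next 6.89) and 5.60 in PGC-1alpha phenformin 4 (next 6.14). Srebf2 read 10.51 in PGC-1alpha PBS 3, with the next at 10.17, and the group mean is 10.13 without it.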

How the results depend on the processing

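None of the 17 member differences that passed changed direction under any alternative run. Having passed, they had little room to reverse, and the direction of differences that did not pass was not followed. Of 17 named differences that passed, 17 still passed without the filter and with probe sets averaged, 16 after centring, 10 after quantile normalisation, 10 without the 4 arrays of lowest weight (control PBS 1 and 5, control phenformin 2 and 3), 6 with the lung score, 1 with the immune score and 8 with an alveolar type 2 score that was chosen after seeing the data. Fatty acid genes passing under phenformin, 6 as reported, were 2 after quantile normalisation, 3 without the 4 arrays, 2 with the lung score, 1 with the immune score and 2 with the alveolar score. Over both treatments, 8 as reported, they were 5 after quantile normalisation, 2 with the lung score, 0 with the immune score and 4 with the alveolar score. Sterol genes passing under phenformin, 1 as reported, were 2 after centring, 2 with only the compared groups fitted, 2 without the 4 arrays and 0 with the immune score. Over both, 2 as reported, they were 1 without the 4 arrays, 1 with the lung score, 0 with the immune score and 1 with the alveolar score. The cause of these moves was not tested.

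Leaving out each array in turn gave 0 to 1 fatty acid genes under PBS, 3 to 7 under phenformin (3 without control phenformin 2) and 7 to 9 over both, and 1 to 2 sterol genes under phenformin and 1 to 4 over both (4 without control PBS 4). Over all genes, the 455 calls under PBS became 237 with only the compared groups, 86 without the 4 arrays, 58 with the lung, 55 with the immune and 101 with the alveolar score. The 3283 under phenformin became 1728, 739 and 1825 with these scores, and the 3831 over both 1078, 613 and 1515. The labels do not tie equal replicate numbers together. The 31 same-numbered pairs of arrays correlated at -0.19 to 0.31 (median 0.006, 7 over 0.1) and 150 other pairs at -0.21 to 0.19 (median 0.002, 17 over 0.1). Of 22 arrays, 9 correlated best with one of their own number, where 3.76 would be expected if the number had no bearing. Because the labels state no pairing, the numbers were not used as pairs in the main fit. Its p-values thus ignore any structure that the numbers carry. With the replicate block, 16 of 17 named differences still passed, Elovl6 over both being the exception, and the counts were 1 and 3 sterol genes under phenformin and over both.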

Other observations

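Differences between pairs of members within the same array do not depend on the scaling of that array by a constant. These pairs were chosen after their values were seen, each with a member that was higher and one that was lower, so they are a description. No share over all pairs of genes was computed. A drift with brightness, as seen between the lines under phenformin, is not removed. Acacb (mean 7.45) and Elovl6 (8.17) were dimmer than Acaca (8.44) and Elovl1 (10.03), while Acly (11.77) was brighter than Scd1 (11.22). The part of this drift in the pairs was not tested. Acly minus Scd1 was 0.20 ± 0.07 (SD, n = 5) in the control group under PBS, against 0.86 ± 0.17 (n = 6) with PGC-1alpha, and 0.21 ± 0.21 (n = 5) against 0.82 ± 0.18 (n = 6) under phenformin. Its range was 0.09 to 0.25 in control and 0.67 to 1.08 in PGC-1alpha arrays under PBS, without overlap, and 0.09 to 0.57 and 0.49 to 0.98 under phenformin, with overlap. Acacb minus Acaca was -1.27 ± 0.27 and -0.84 ± 0.34 under PBS in control and PGC-1alpha arrays, and -1.40 ± 0.18 and -0.55 ± 0.19 under phenformin, where every PGC-1alpha array lay above every control array, while the lines overlapped under PBS (-1.49 to -0.91 and -1.22 to -0.28). Elovl6 minus Elovl1 was -2.34 ± 0.40 and -1.59 ± 0.41 under PBS and -2.20 ± 0.15 and -1.43 ± 0.37 under phenformin, with overlap under both treatments. The values themselves compare different probe sets and carry no level. Fabp4, a fatty acid carrier of fat cells, endothelium and macrophages, was lower in PGC-1alpha metastases over both treatments while Plin1, a lipid droplet coat protein, was higher, with group means of 8.48, 9.65, 7.79 and 8.35 for Fabp4 and 6.25, 6.28, 6.45 and 6.64 for Plin1 in the order control PBS, control phenformin, PGC-1alpha PBS and PGC-1alpha phenformin.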
